A study of Mus musculus with 8 samples.

Results

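Metallothioneins and the genes that store, import, export and sense iron were examined in the brains of young adult and aged mice. The set holds 10 genes taken by name, Mt1, Mt2, Mt3, Fth1, Ftl1, Tfrc, Trf, Slc40a1, Slc11a2 and Ireb2, of 22430 genes listed in a table of RNA-seq counts. All 10 passed the filter on low counts, as did 16730 genes in all. RNA came from brain hemispheres, labelled as whole brain, of 4 male mice aged 6 months (6m) and 4 aged 24 months (24m), 1 library from each animal. The animals were C57Bl/6JRj mice of a commercial breeder, and neither the labels nor the methods give a transgene, deletion or treatment for any of them. Libraries were directional, made from polyadenylated RNA and read from both ends, in order to compare gene expression between the ages.

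Cells take up iron that is bound to transferrin (Trf) through the transferrin receptor (Tfrc), move it across endosomal membranes through the divalent metal transporter (Slc11a2), store it in ferritin shells built of heavy (Fth1) and light (Ftl1) chains, and release it through ferroportin (Slc40a1). Iron regulatory proteins, of which Ireb2 encodes one, bind hairpins called iron-responsive elements when iron is low: binding in a 5′ UTR blocks translation and binding in a 3′ UTR protects the mRNA from decay. Metallothioneins are small cysteine-rich proteins that bind zinc and copper, and transcription of Mt1 and Mt2 answers to zinc through the factor MTF1 at metal response elements. In brain, Mt1 and Mt2 are known chiefly from astrocytes, Mt3 from astrocytes and neurons, and transferrin from oligodendrocytes and the choroid plexus.

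A strict letter pattern of these hairpins was matched in 4 of the 10 genes, and the matches are shown before the values. The pattern searched in annotated UTRs was C, 5 bases, CAGTGN, and 5 bases that pair with the first 5, with G-T pairs allowed. Each site is given 5′ to 3′ on the strand of its gene as 29 bases of the GRCm39 assembly, with the bulged C and the loop in capitals. Fth1, Ftl1 and Slc40a1 each held 1 site in the 5′ UTR, and Tfrc held 4 in the 3′ UTR.
Fth1, 5′ UTR, chr19:9960096-9960124: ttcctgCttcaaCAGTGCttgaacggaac
Ftl1, 5′ UTR, chr7:45109203-45109231: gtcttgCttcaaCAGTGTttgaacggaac
Slc40a1, 5′ UTR, chr1:45964625-45964653: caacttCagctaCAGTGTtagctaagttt
Tfrc, 3′ UTR, chr16:32450037-32450065: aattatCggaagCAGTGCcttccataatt
Tfrc, 3′ UTR, chr16:32450416-32450444: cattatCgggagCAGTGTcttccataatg
Tfrc, 3′ UTR, chr16:32450481-32450509: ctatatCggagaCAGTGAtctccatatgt
Tfrc, 3′ UTR, chr16:32450528-32450556: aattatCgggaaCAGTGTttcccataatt
The pattern occurred in the 5′ UTR of 44 of 20748 genes (0.212%) and in the 3′ UTR of 162 of 20900 genes (0.775%). No match was found in the UTRs of the other 6 genes, which says only that these letters are not there. Genome positions are those of GRCm39 throughout.

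The metallothioneins lie side by side on 1 strand of chromosome 8, Mt3 at 94879220-94881088, Mt2 at 94898819-94900207 and Mt1 at 94905710-94906955, within 27.7 kb. The cores TGCACNC and TGCGCNC of the metal response element were searched on both strands from 250 bases before to 50 bases after each annotated start, and the start with the most cores was kept. The Mt1 window held 5 cores and the Mt2 window 4. They are given with the core in capitals, read along the strand that carries it, with the position of the core relative to the start site.
Mt1, -175, chr8:94905689-94905705: cgctgTGCACACtggcg
Mt1, -150, chr8:94905714-94905730: agctcTGCACTCcgccc
Mt1, -132, chr8:94905732-94905748: aaaagTGCGCTCggctc
Mt1, -68, other strand, chr8:94905796-94905812: gggttTGCACCCagcag
Mt1, -54, chr8:94905810-94905826: cccttTGCGCCCggact
Mt2, -238, other strand, chr8:94899245-94899261: gggccTGCGCACgaccc
Mt2, -184, other strand, chr8:94899299-94899315: ccgccTGCACACgccct
Mt2, -165, other strand, chr8:94899318-94899334: caccaTGCACGCgcccc
Mt2, -131, chr8:94899352-94899368: gctttTGCGCTCgaccc
Of 21525 genes searched the same way, 38.2% held at least 1 core, 0.864% at least 4 and 0.265% at least 5. Mt3 held 1 core, after its start site, Trf held 1, and Tfrc held 2 that overlap on opposite strands. The windows of Fth1, Ftl1, Slc40a1, Slc11a2 and Ireb2 held none of these letters.

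Libraries held 63460940 to 103462414 counts. Values are given as counts per 1e+06 (CPM), scaled by TMM (trimmed mean of M values) with factors of 0.887 to 1.13, as means ± SD with n = 4 per age. Changes are log2 ratios of 24m over 6m (log2FC) with their standard error (SE). They and their adjusted p (Benjamini-Hochberg) come from edgeR's quasi-likelihood test fitted over all 16730 genes. A gene was called higher or lower if its adjusted p did not exceed 0.05 and its log2FC was 0.58 or more in size. The deepest library, 24m replicate 1, stood apart from the other 24m libraries. Its counts gave a chi-square of 179 to 417 per degree of freedom against them, where they gave 13 to 61.2 among themselves and the 6m libraries 8.18 to 48.3. Fold changes also followed transcript length over all genes, which is described after the single genes, and results are given with and without that library and that trend.

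Between 6m and 24m, transcripts of the 3 metallothioneins and both ferritin chains fell 1.75- to 2.61-fold, while Tfrc and Ireb2 rose 3.31- and 3.55-fold. Of these 7 changes, those of Mt3, Tfrc and Ireb2 were also called with the canonical length trend removed. Trf, Slc40a1 and Slc11a2 were not called. Thus 7 of the 10 genes were called, 2 higher and 5 lower, where 43.6% of all tested genes were called, 25.3% higher and 18.3% lower. The same 7 genes had 24m libraries that all lay outside the 6m range, a separation seen in 55.2% of tested genes. In 2 of them (28.4% of tested genes) the 24m libraries were above and in 5 (26.8% of tested genes) below. The share of all counts held by the 10 genes was 1.25% to 1.59% in the 6m libraries and 0.722% to 1.13% in the 24m libraries.

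**Figure D1:**
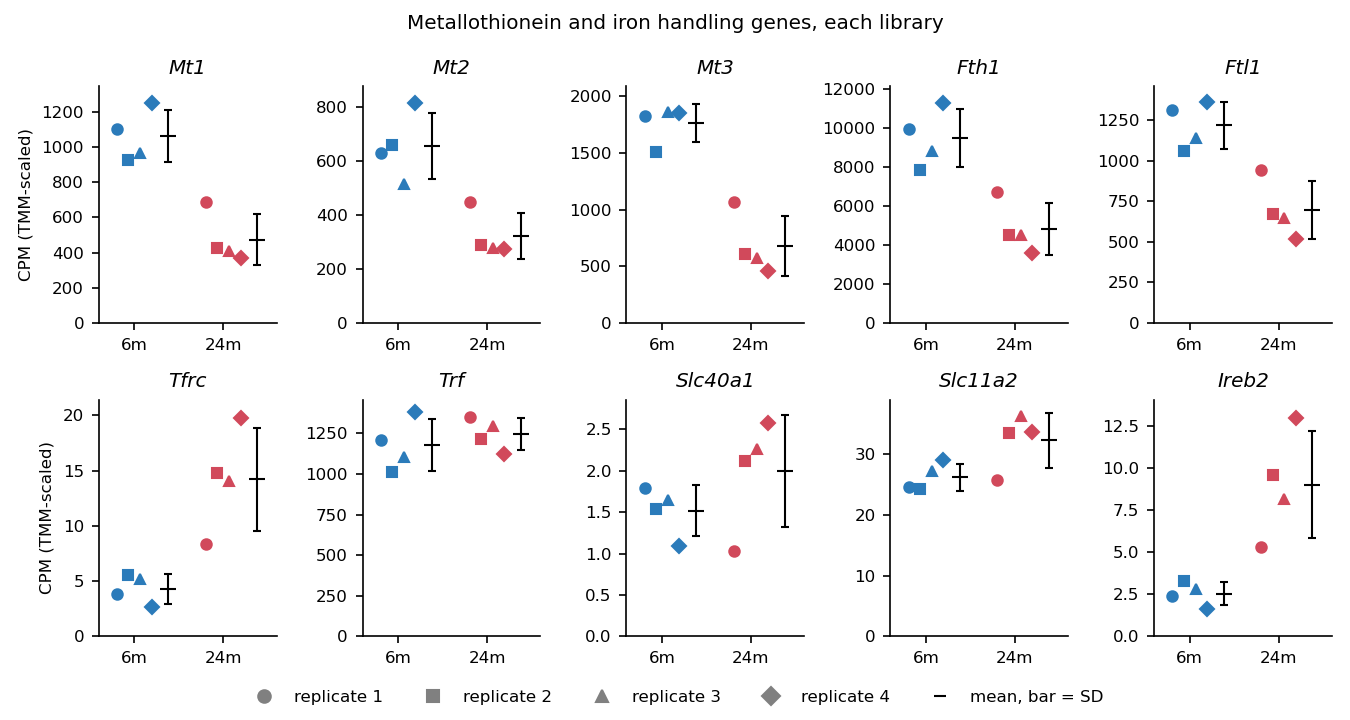
TMM-scaled CPM of each gene in each library, 6m in blue and 24m in red, with a symbol for each replicate number and the mean and SD in black. The ages did not overlap for Mt1, Mt2, Mt3, Fth1, Ftl1, Tfrc and Ireb2, and 24m replicate 1 (red circle) was the 24m library nearest to the 6m range in each of these 7.

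Mt3, the brain metallothionein, showed the largest decrease of the 10 genes in this fit. Its CPM was 1829, 1510, 1861 and 1856 at 6m and 1063, 612, 575 and 458 at 24m, here and below in the order of replicates 1 to 4. The 6m libraries were close together apart from replicate 2, the 24m libraries were all lower, and 24m replicate 1 was well above the other 24m libraries. The mean went from 1764 ± 170 to 677 ± 266, a log2FC of -1.38 ± 0.23 (SE, edgeR adjusted p = 0.000798). Without 24m replicate 1 it was -1.68 (adjusted p = 9.06e-07).

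Mt1, the widely expressed metallothionein, had CPM of 1105, 928, 964 and 1249 at 6m and 689, 428, 406 and 369 at 24m. The ages did not overlap. The mean went from 1062 ± 146 to 473 ± 146, and the log2FC was -1.17 ± 0.20 (edgeR adjusted p = 0.000807). Mt2, its neighbour and close relative, had CPM of 630, 656, 515 and 814 at 6m and 449, 287, 276 and 274 at 24m. The aged libraries other than replicate 1 lay close together, and replicate 1 stood above them. The Mt2 mean went from 654 ± 123 to 321 ± 85.2, with a log2FC of -1.02 ± 0.19 (edgeR adjusted p = 0.00135). Without 24m replicate 1 the log2FC values were -1.39 for Mt1 and -1.22 for Mt2. Neither was called with the canonical length trend removed (-0.36 for Mt1 and -0.20 for Mt2) or with the exonic one removed (-0.51 and -0.29). Exons of Mt2 overlap an antisense lncRNA, and whether reads were assigned by strand was not stated.

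Proportions among the metallothioneins within a library, which do not depend on scaling between libraries, overlapped between ages. Mt1 counts per Mt2 count were 1.41 to 1.87 at 6m and 1.35 to 1.54 at 24m. Mt3 counts per Mt1 count were 1.49 to 1.93 at 6m and 1.24 to 1.54 at 24m. Astrocyte markers, measured beside them, did not fall as a list: 6 of 10 were called higher and 1, S100b, lower, with a median log2FC of 0.97. Those called higher have canonical transcripts of 2876 (Gfap) to 12025 (Slc1a2) bases, and S100b has 1687. The summed level of astrocyte markers was 2961 to 3895 CPM at 6m and 2930 to 3900 CPM at 24m. Most of it came from Aldoc, which was not called (mean 2507 CPM at 6m and 2057 CPM at 24m). Of 10 neuron markers 4 were called higher and 1 lower (median 0.41), and their sum was 4984 to 5530 CPM at 6m and 5984 to 6301 CPM at 24m. The part of either cell type in the metallothionein values, and of transcript length in the marker calls, was not tested. None of the markers used here was at 0 in any library. In whole tissue RNA, fewer cells of a type and less RNA per cell cannot be told apart.

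Fth1 (chr19:9957911-9962462), the ferritin heavy chain, was the most abundant of the 10 transcripts. It took 9937, 7831, 8796 and 11284 CPM at 6m and 6724, 4516, 4506 and 3571 CPM at 24m. Its counts ranked number 3 of all genes in every 6m library and in 24m replicate 1, and number 5 or 6 in the other 24m libraries. The mean went from 9462 ± 1488 to 4829 ± 1339, a log2FC of -0.97 ± 0.20 (edgeR adjusted p = 0.00218). Ftl1 (chr7:45107367-45109308), the light chain, had CPM of 1312, 1058, 1139 and 1362 at 6m and 940, 673, 649 and 515 at 24m. Its highest aged library was thus below its lowest young one. The Ftl1 mean went from 1218 ± 143 to 694 ± 178, a log2FC of -0.81 ± 0.17 (edgeR adjusted p = 0.00282). Without 24m replicate 1 the log2FC values were -1.16 for Fth1 and -0.98 for Ftl1. Neither was called with the canonical length trend removed (-0.23 for Fth1 and -0.08 for Ftl1) or with DESeq2 after quantile normalization (-0.30 and -0.49).

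The ratio of heavy to light chain counts was slightly lower at 24m. Fth1 counts per Ftl1 count were 7.57, 7.4, 7.72 and 8.29 at 6m and 7.16, 6.71, 6.94 and 6.93 at 24m, a mean log2 difference of -0.16 with no overlap between ages. Ferritin genes have many near-identical copies in the mouse genome, and how reads with several matches were treated was not stated. One such copy, Ftl1-ps1, was listed with 998 to 2962 counts per library and had a log2FC of -1.04. Both ferritin genes also share exonic bases with genes on the other strand.

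Tfrc (chr16:32427556-32451612), the receptor that carries iron-loaded transferrin into cells, was a low transcript that rose. It had 250, 391, 315 and 174 counts at 6m and 870, 1181, 1168 and 1723 counts at 24m, or 3.81, 5.53, 5.23 and 2.63 CPM against 8.4, 14.7, 14 and 19.8 CPM. Every aged library was above every young one, with 24m replicate 1 lowest and replicate 4 highest among the aged. The mean went from 4.3 ± 1.34 to 14.2 ± 4.65 CPM, a log2FC of 1.73 ± 0.29 (edgeR adjusted p = 0.000809), or 1.92 without 24m replicate 1. Ireb2 (chr9:54770970-54820011), which encodes an iron regulatory protein, followed the same order of libraries. The difference between long and short genes in each library, described below, had that order at 6m. At 24m it was also lowest in replicate 1 and highest in replicate 4. Ireb2 counts were 158, 232, 171 and 108 at 6m and 551, 769, 682 and 1131 at 24m. These gave 2.41, 3.28, 2.84 and 1.63 CPM against 5.32, 9.6, 8.19 and 13 CPM. The Ireb2 mean went from 2.54 ± 0.701 to 9.02 ± 3.18 CPM, a log2FC of 1.83 ± 0.29 (edgeR adjusted p = 0.000585), or 2.02 without 24m replicate 1.

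Receptor and ferritin were also set against each other within each library. There were 0.383, 0.706, 0.594 and 0.233 Tfrc counts per 1000 Fth1 counts at 6m and 1.25, 3.26, 3.11 and 5.53 at 24m. The ages did not overlap, and the mean log2 ratio differed by 2.72. The ratio sets a long transcript against a short one, and with the canonical length trend removed the log2FC was 1.24 for Tfrc and -0.23 for Fth1. Set against its ligand, Tfrc also gained, with a mean log2 difference of 1.63 in the ratio of Tfrc to Trf counts and no overlap. Endothelial cells, which carry the receptor at the blood-brain barrier, had markers that went both ways, 2 of 10 called higher (Flt1 and Kdr) and 2 lower (Cldn5 and Ly6c1). Canonical transcripts have 6895 (Flt1) and 5924 (Kdr) bases against 1416 (Cldn5) and 1088 (Ly6c1). The endothelial markers summed to 88.3 to 126 CPM at 6m and 55.7 to 85 CPM at 24m. The 5 red blood cell markers were all called lower, with a median log2FC of -1.42. Their summed level was 5426 to 7605 CPM at 6m and 1242 to 4156 CPM at 24m. The haemoglobin genes among them have canonical transcripts of 647 to 738 bases. Of all tested genes under 1 kb, 64.9% were called lower, with a median log2FC of -0.85. The part of either cell type in the values of Tfrc and ferritin, and of transcript length in the marker calls, was not tested.

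**Figure D2:**
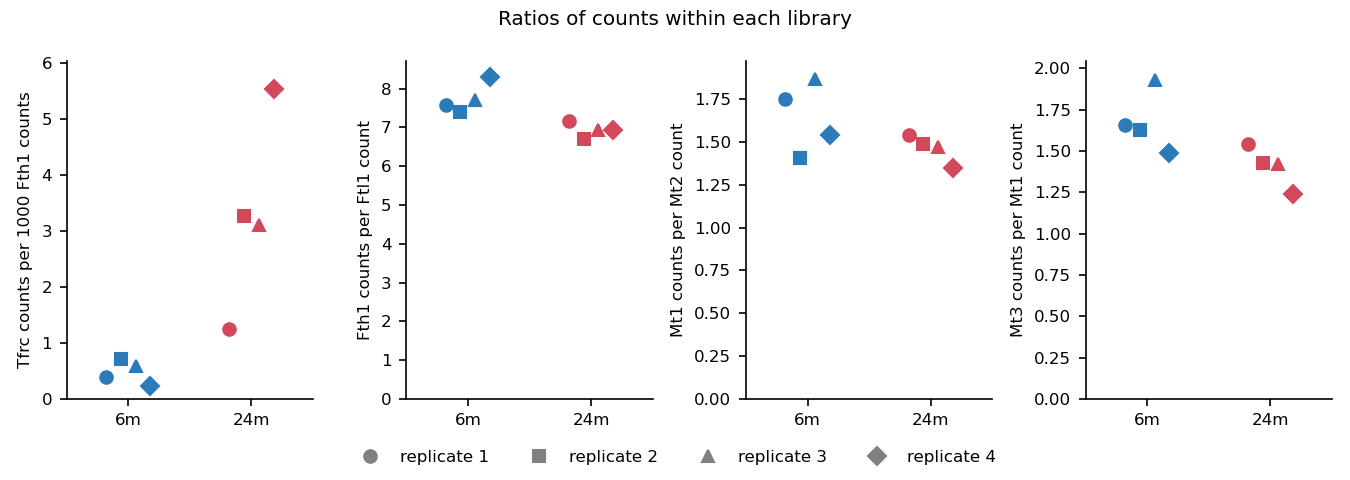
Counts of 1 gene over counts of another within each library, 6m in blue and 24m in red, with a symbol for each replicate number. The ratio of Tfrc to Fth1 was 0.233 to 0.706 per 1000 at 6m and 1.25 to 5.53 at 24m, the ratio of Fth1 to Ftl1 separated the ages by a small margin, and the metallothionein ratios overlapped.

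Trf (chr9:103081200-103107814), the iron carrier of plasma that brain cells also make, did not differ beyond the spread between libraries. Its CPM was 1210, 1014, 1105 and 1384 at 6m and 1352, 1214, 1297 and 1122 at 24m. These ranges overlapped, and the log2FC was 0.08 ± 0.11 (edgeR adjusted p = 0.557). With library totals alone as the scaling it was 0.30 (adjusted p = 0.0109), and with DESeq2 after quantile normalization 0.44 (adjusted p = 2.83e-06), both below the fold threshold. Oligodendrocyte markers overlapped between ages in their sum. Of 10, 2 were called higher, with a median log2FC of 0.03 and summed levels of 3500 to 4361 CPM at 6m and 3786 to 4370 CPM at 24m. Choroid plexus markers summed to 1788 to 3215 CPM at 6m and 832 to 2270 CPM at 24m, with 3 of 8 called higher (Kl, Clic6 and Aqp1) and none lower. Nearly all of that sum came from 1 marker, which was not called (edgeR adjusted p = 0.0598).

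Slc11a2 (chr15:100285776-100322953), which moves ferrous iron and other divalent metals across membranes, had CPM of 24.5, 24.3, 27.1 and 28.9 at 6m and 25.7, 33.5, 36.3 and 33.6 at 24m. The 24m libraries other than replicate 1 were above the 6m range. The log2FC was 0.30 ± 0.12 (edgeR adjusted p = 0.0488), which passed the adjusted p and not the fold threshold. Over the alternatives the adjusted p ranged from 0.00115 to 0.377, and the log2FC was 0.25 with the canonical and -0.13 with the exonic length trend removed, neither called. With Slc11a2 included, 8 of the 10 genes passed the adjusted p alone, as did 62.6% of all tested genes. Slc40a1 (chr1:45947211-45965683), the iron exporter, had 118, 109, 99 and 72 counts at 6m and 107, 170, 188 and 225 at 24m, or 1.8, 1.54, 1.64 and 1.09 CPM against 1.03, 2.12, 2.26 and 2.58 CPM. The lowest value of all 8 was that of 24m replicate 1 and the other 24m libraries lay above the 6m range. The log2FC was 0.39 ± 0.28 (edgeR adjusted p = 0.238), and without 24m replicate 1 it was 0.62 (adjusted p = 0.0111), which was called higher. The ratio of Slc40a1 to Slc11a2 counts overlapped between ages. Exons of Slc40a1, Slc11a2 and Trf each overlap those of an antisense lncRNA.

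To order the genes by level, counts were divided by exonic length and scaled to the same total in each library (TPM, transcripts per 1e+06). At 6m, Fth1 led with 7562 ± 939 TPM, followed by Mt3 at 3565 ± 288, Ftl1 at 2556 ± 206, Mt1 at 2398 ± 250 and Mt2 at 1938 ± 329. The ranges of Ftl1 and Mt1 overlapped, and so did those of Mt1 and Mt2, while Fth1, Mt3 and Ftl1 were separate from each other. Trf stood at 583 ± 60 TPM, and the others were far lower, Slc11a2 at 6.68 ± 0.542, Tfrc at 1.73 ± 0.596, Ireb2 at 0.641 ± 0.197 and Slc40a1 at 0.456 ± 0.0941. Among these, Ireb2 and Slc40a1 overlapped. At 24m Ftl1 (2062 ± 279) and Mt3 (1911 ± 497) had changed places with overlapping ranges, and the order was otherwise the same. With canonical transcript length as the divisor, Mt1 (2265) stood before Ftl1 (2044) at 6m, and at 24m Mt3 (1780) stood before Ftl1 (1650) and Trf (1135) before Mt2 (990). Slc40a1 (0.717) and Ireb2 (0.712) also changed places at 6m. Trf was at 819 to 953 TPM at 24m against 523 to 666 at 6m, although its TMM-scaled CPM overlapped. Slc11a2 likewise separated in TPM, with 8.01 to 13.7 at 24m against 6.03 to 7.15 at 6m. Conversely, ages that were apart in CPM overlapped in TPM for Fth1 (4582 to 6586 at 24m, 6534 to 8776 at 6m). The same held for Ftl1 (1736 to 2416, 2317 to 2780) and Mt2 (1215 to 1629, 1573 to 2345). TPM differs from the TMM-scaled CPM both in the division by length and in leaving out the TMM factors.

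The direction of change ran with transcript length. The 5 genes that fell have canonical transcripts of 748 (Mt2), 762 (Mt1), 865 (Mt3), 929 (Fth1) and 969 (Ftl1) bases, and the 2 that rose have 4895 (Tfrc) and 5873 (Ireb2). The 3 not called lie between, Trf at 2571, Slc11a2 at 3025 and Slc40a1 at 3463 bases. Over all genes the same order held: the median log2FC was -0.85 for the 1041 tested genes under 1 kb, of which 64.9% were called lower, and 0.65 for the 4143 genes over 5 kb, of which 51.9% were called higher. In each library, the median deviation of genes over 5 kb minus that of genes under 1 kb was -0.76 to -0.48 (log2) at 6m, -0.03 in 24m replicate 1 and 0.70 to 1.07 in the other 24m libraries. The share of counts from genes of the mitochondrial genome was 5.26% to 6.52% at 6m and 3.18% to 3.69% at 24m. The age of the animals and these library properties cannot be told apart here.

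Set beside genes of their own length class, the 10 genes lay at different distances from the class median. Tfrc had a log2FC 1.36 above that of the 2206 genes of 4 to 5 kb, and 4.67% of these had a higher value. Ireb2 lay 1.17 above the median of the genes over 5 kb, of which 13% had a higher value. Among the genes under 1 kb, Mt3 was at -0.53 from the median, with 7.59% of the class lower, and Mt1 at -0.32, with 19.1% lower. Mt2 (-0.18), Fth1 (-0.12) and Ftl1 (0.04) were nearer to the median of that class. Trf, Slc40a1 and Slc11a2 were 0.22, 0.25 and 0.15 above the medians of their classes.

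**Figure D3:**
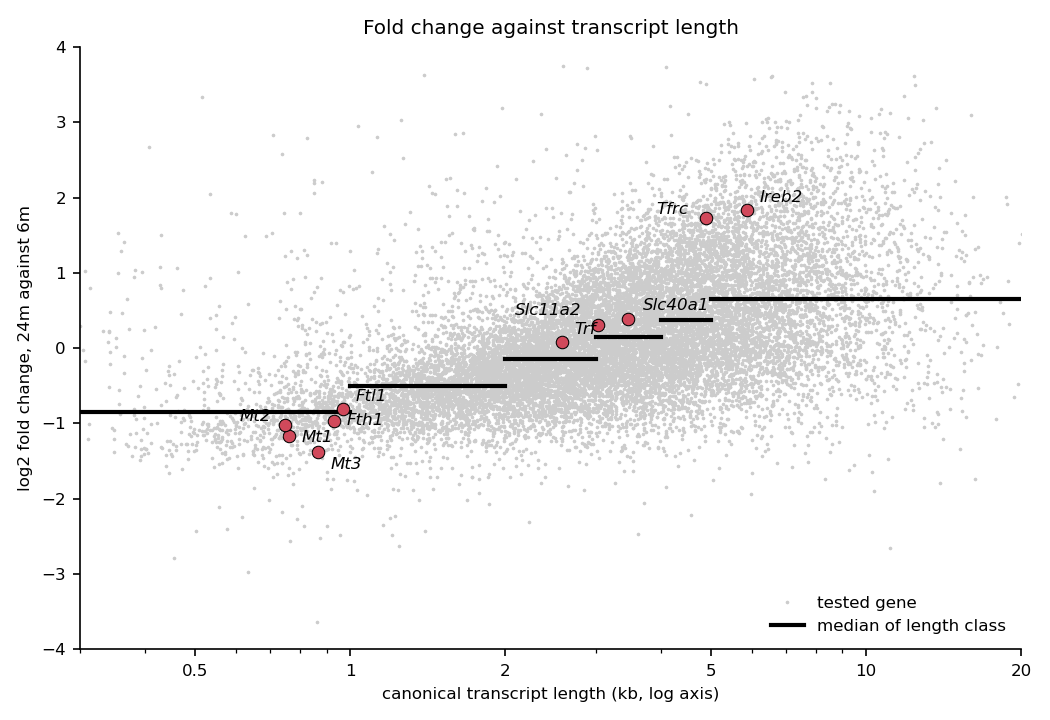
Log2FC of 24m over 6m against canonical transcript length on a log axis, with tested genes as grey points, the median of each length class as a black bar and the 10 genes in red. Axes show 0.3 to 20 kb and -4 to 4. The 5 genes that fell sit under 1 kb, where the median was -0.85, and Tfrc and Ireb2 sit well above the medians of their classes.

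When a smoothed trend over canonical transcript length was removed from each library, 2 of the 10 genes were called higher and 1 lower. Tfrc (1.24 ± 0.23, edgeR adjusted p = 0.00115), Ireb2 (1.21 ± 0.21, adjusted p = 0.000766) and Mt3 (-0.64 ± 0.12, adjusted p = 0.00137) kept their calls. Mt1, Fth1, Mt2 and Ftl1 no longer reached the fold threshold. Of these 4, only Mt1 passed the adjusted p in that fit, at 0.0066. With exonic length, the union of all exons, in place of canonical length, Fth1, whose exons span 3520 bases in all, kept its call at -0.81, as did Mt3 at -0.77, and Mt1, Mt2 and Ftl1 (-0.17) lost theirs. Mt3, Tfrc and Ireb2 were called in the same direction in all 22 alternatives run.

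**Figure D4:**
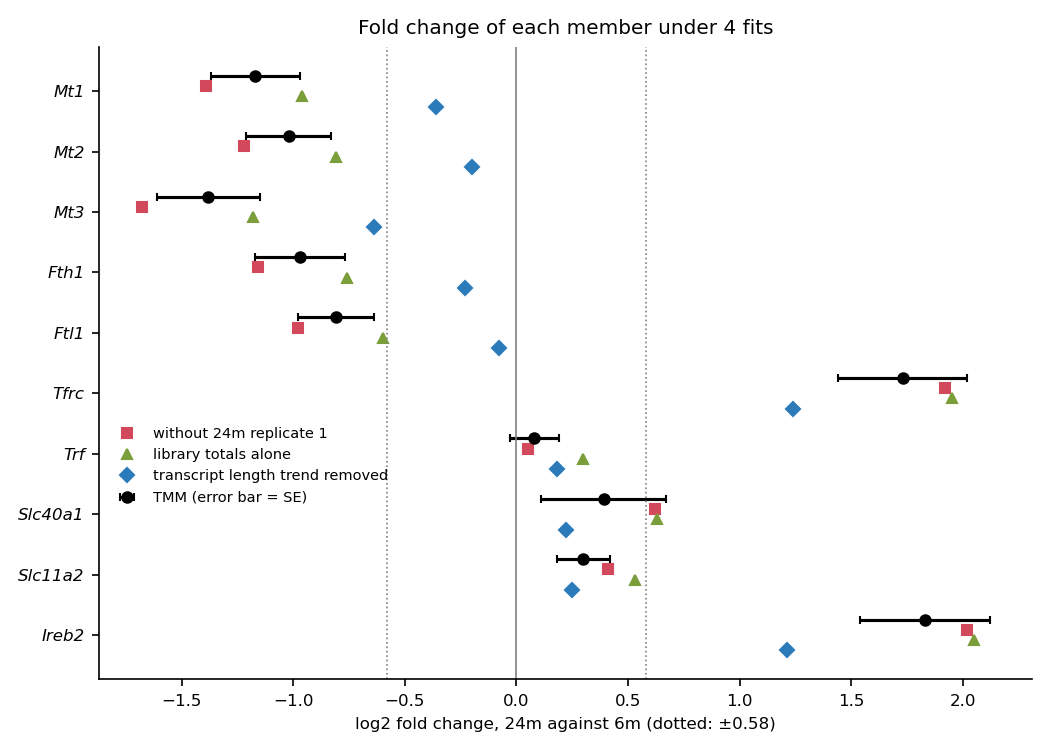
Log2FC of 24m over 6m for each gene with TMM scaling (black, bar = SE), without 24m replicate 1 (red), with library totals alone (green) and with the canonical transcript length trend removed (blue). Dotted lines mark the fold threshold of 0.58, and the blue points of Mt1, Mt2, Fth1 and Ftl1 lie inside it while those of Mt3, Tfrc and Ireb2 lie outside.

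Other genes of metal handling were counted in 6 lists, of which 96 genes were tested. There 18 rose, 22 fell and the median log2FC was -0.06, beside 25.3%, 18.3% and a median of -0.00337 over all genes. With library totals alone, which moved the median of all genes to 0.214, the counts were 30 higher and 11 lower.

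Of the partners in iron transport and storage, 19 of 23 were tested, 6 were called higher and 1 lower, and the median log2FC was 0.42. The largest increase was that of Slc39a14, an importer of iron, zinc and manganese, with 3.31 to 4.07 CPM at 6m and 11.4 to 15.1 CPM at 24m (log2FC 1.86 ± 0.13, edgeR adjusted p = 1.94e-05). Ncoa4, the receptor that delivers ferritin to lysosomes, rose from 19.3 ± 3.32 to 43.5 ± 10.2 CPM (1.17 ± 0.18), and Steap2, a metal reductase, by 1.13 on the log2 scale. The ferroxidases Heph (0.84) and Cp (0.60), which load exported iron onto transferrin, were called higher, and Slc25a28 (-0.60), an importer of iron into mitochondria, lower. Slc25a37, its relative with the same role, which was picked out after its values were seen, was called higher (0.61 ± 0.12, edgeR adjusted p = 0.00154) with 4.96 to 6.19 CPM at 6m and 7.83 to 9.45 CPM at 24m. Slc25a28 and Heph (2.5 to 2.9 CPM at 6m and 2.7 to 7 CPM at 24m) overlapped between ages. Heph, Cp and Slc25a28 were not called after removal of the canonical length trend, whereas Slc39a14, Ncoa4 and Steap2 were called in all 22 alternatives. Tfr2, the second transferrin receptor, had a log2FC of -0.52 (adjusted p = 0.00691) and was not called. It was called lower without 24m replicate 1 (-0.61), with the canonical length trend removed (-0.73) and with DESeq2 after quantile normalization (-0.80). Without 24m replicate 1, 4 genes of the list were called lower. Slc25a28 lost its call without 6m replicate 1 or 4 or without 24m replicate 2, 3 or 4 (lowest size -0.46), and Cp lost it without 6m replicate 4 (0.49).

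Of the genes of iron sensing and hepcidin control, 10 of 11 were tested, 3 rose and 1 fell, and the median was 0.01. Aco1, the cytosolic aconitase that serves as the other iron regulatory protein, was at 33 to 34.6 CPM at 6m and 39 to 41.2 CPM at 24m, a log2FC of 0.23 (edgeR adjusted p = 0.0184) that stayed under the fold threshold. Fbxl5, which marks iron regulatory proteins for degradation, was at 0.09 (adjusted p = 0.382), and at -0.46 (adjusted p = 0.0188) with the exonic length trend removed. Epas1 (1.35), an oxygen-sensitive transcription factor, Neo1 (0.99) and Bmp6 (0.62), of the pathway that induces hepcidin, were called higher. Epas1 overlapped between ages, with 16.5 to 23.1 CPM at 6m and 19 to 69 CPM at 24m. Tmprss6 (-0.62), a protease that restrains hepcidin, was called lower. Tmprss6 lost its call without 6m replicate 2 or 4 or 24m replicate 2 or 4 (to -0.55), and Bmp6 without 24m replicate 3 (0.55). With the canonical length trend removed Bmp6 (0.43) was not called, and with the exonic length trend removed Neo1 (0.53) and Tmprss6 (-0.43) were not. Tmprss6 was also not called with the GC trend removed (-0.44) or with library totals alone (-0.41), and Bmp6 was not with DESeq2 after quantile normalization (0.33). Hamp, hepcidin itself, had too few counts to test.

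Haem carries iron in haemoglobin and cytochromes, and iron-sulphur clusters are cofactors built in mitochondria. Of 18 haem genes 1 was called higher and 6 lower (median -0.38), and of 17 iron-sulphur cluster genes 1 was called higher and 8 lower (median -0.51). Leaving out 6m replicate 2 or 3, or 24m replicate 1, gave 2 iron-sulphur genes higher. Haem synthesis enzymes went both ways, with Cpox higher (0.90) and Urod (-0.73) and Alad (-0.67) lower. The biliverdin reductases Blvra (-0.64) and Blvrb (-0.81) fell, and haem oxygenase Hmox1 was at 0.43 (edgeR adjusted p = 0.0353), under the fold threshold. Hmox1 was called higher with the canonical (0.89) or exonic (0.97) length trend removed and with library totals alone (0.64). Among iron-sulphur genes, Bola3 (-1.22), Glrx5 (-1.12), Isca2 (-0.72) and Nfu1 (-0.63), which handle or pass on clusters, fell. Bola3, Glrx5 and Cpox were called in all 22 alternatives. Blvra, Blvrb, Isca2 and Nfu1 were not called once the canonical length trend was removed, and Alad and Urod were not called with library totals alone. Without 24m replicate 4, Alad, Blvra and Nfu1 (-0.57 each) were not called and 3 haem genes were lower in place of 6.

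Of 22 zinc genes tested, 6 were called higher and 1 lower (median 0.33), and of 10 copper genes 1 was called higher and 5 lower (median -0.27). Zinc genes called lower numbered 2 when 6m replicate 2 or 3, or 24m replicate 1, was left out. Copper genes called higher numbered 2 when replicate 1 of either age was left out. Mtf1, the zinc sensor of the metallothionein promoters, was at 11 to 12.1 CPM at 6m and 10.1 to 14.4 CPM at 24m, with a log2FC of 0.12 (edgeR adjusted p = 0.418). With the canonical length trend removed it was -0.60 (adjusted p = 0.000766) and called lower. Slc30a1, a zinc exporter that MTF1 also induces, was called higher (0.74) although its ages overlapped (5.6 to 7.26 CPM at 6m and 6.44 to 13.6 CPM at 24m), and was not called with that trend removed. Slc30a4 (2.39), Slc39a10 (2.02) and Slc39a9 (1.74), all zinc transporters, rose, and the importer Slc39a2 (-1.63) fell, each in all 22 alternatives. Of the copper genes, the pump Atp7a rose (1.61), and the chaperones Cox17 (-1.28) and Atox1 (-1.21), the cytochrome oxidase assembly factor Sco2 (-0.75) and Commd1 (-0.62) fell. Atox1 was not called with the canonical length trend removed, and Sco2 and Commd1 were not called with library totals alone.

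**Figure D5:**
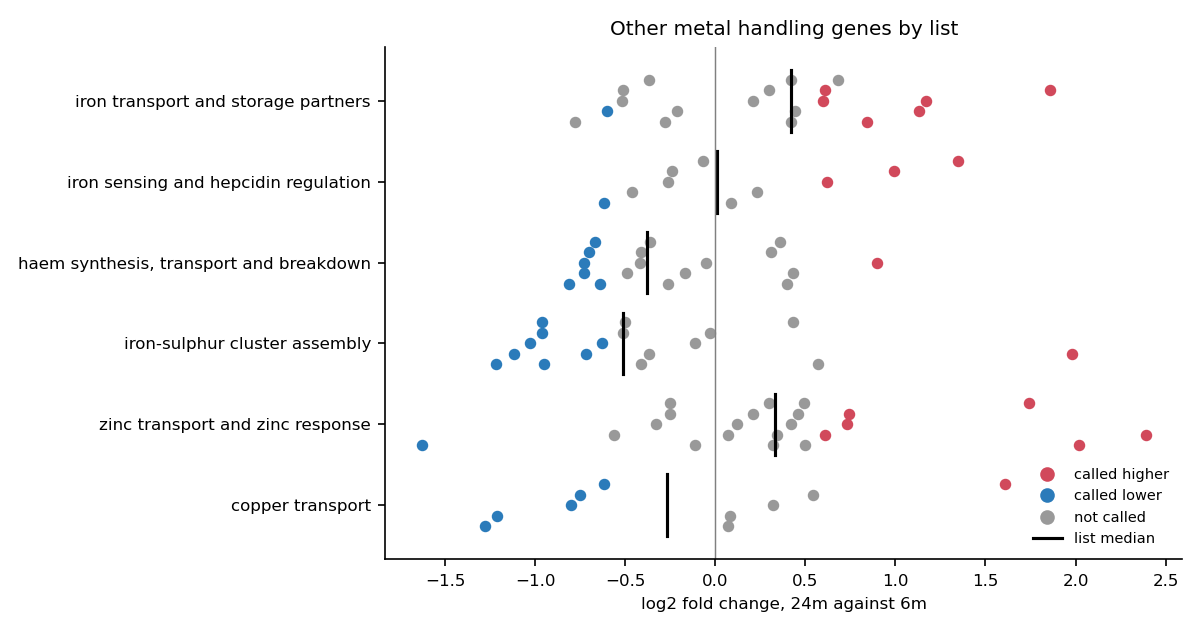
Log2FC of 24m over 6m of each tested gene in the 6 lists, with genes called higher in red, lower in blue and not called in grey, and the list median as a black line. Medians were 0.42 for iron transport partners, 0.01 for iron sensing, -0.38 for haem, -0.51 for iron-sulphur clusters, 0.33 for zinc and -0.27 for copper.

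Genes that share the hairpin pattern were counted as well. Of 40 tested genes with it in the 5′ UTR, 8 were called higher and 11 lower, and of 152 with it in the 3′ UTR, 68 were called higher and 17 lower, where 25.3% of all tested genes were called higher and 18.3% lower. Fth1, Ftl1 and Slc40a1 are among the former and Tfrc among the latter. The part of transcript length in these counts was not tested.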

How the data were processed

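RNA-seq of polyadenylated RNA was measured in 8 libraries, 4 per age, grouped by the labels. The authors trimmed reads with Trim Galore 0.4.11, aligned them to GRCm39 with HISAT2 2.1.0 and counted them over Ensembl genes in featureCounts. The deposited values are raw counts, whole numbers with no normalization. Their treatment of strand and of reads with several matches is not given in the sources used here. The members and lists were chosen with earlier results of these data known.

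Gene names, lengths and positions came from GENCODE M39 (22281 of 22430 genes matched). The test was edgeR's quasi-likelihood test (edgeR 4.0.16 in R 4.3.3) with TMM factors and no covariate beside age, on genes above 5 counts in 4 or more libraries. The study ran DESeq2 on counts that had gone through quantile and then row-wise median normalization. Alternatives here were DESeq2 (1.42.0) on raw counts, DESeq2 after quantile normalization without the median step, and limma 3.58.1. Of these, the setting with quantile normalization is the nearest to the study's. Counts were simulated for 16730 genes with a common dispersion and with neither a length trend nor an outlying library. There 88% of 200 genes changed by 1 on the log2 scale were recovered, and 6 unchanged genes were called. The real libraries differ from that setting, so this is no recovery rate for them. Other alternatives changed scaling, filters, length and GC trends (smoothed with a span of 0.3) and left out each library. Ratios and TPM are descriptions without a test. From each list, the called genes with the highest (3) and lowest (2) log2FC at a mean of at least 1 CPM are named, plus 11 direct partners of members. No pair of libraries of 1 age agreed within sampling noise. Protein sequences were not used here, and some genes of the lists are not reported by name here.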

Additional observations from a re-analysis of the deposited data

Results flagged for a closer look

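In groups of 4 libraries, a value was singled out where its gap to the nearest other, divided by the range of the group, passed Dixon's critical value. Of 104 such groups 5 passed, where chance gives about 1 in 20. For Mt2, 24m replicate 1 was high at 449 CPM against 274 to 287 in the other 24m libraries (gap share 0.927). For Mt3, 6m replicate 2 was low at 1510 CPM against 1829 to 1861 (0.909). For Cp, 24m replicate 3 was low at 4.18 CPM against 5.1 to 5.16 (0.94). For Aco1, 6m replicate 3 was low at 33 CPM against 34.4 to 34.6 (0.846). For Mtf1, 6m replicate 4 was high at 12.1 CPM against 11 to 11.1 (0.933).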

How the results depend on the processing

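Of 220 values of members under 22 alternatives, 203 kept their direction and side of the threshold, 12 lost the call, 1 gained it and 4 changed sign. Of 792 values of other named genes, 710, 61, 7 and 14 did so. Members called lower numbered 5 in the edgeR fit, 3 with DESeq2 after quantile normalization, 2 with the exonic length trend removed, with and without the replicate block, and 1 with the canonical length trend removed, an alternative chosen after seeing the data. Genes called lower numbered 3058 in the edgeR fit, 1746 with library totals alone and 4999 by adjusted p alone. With library totals alone 30 genes of the lists were higher and 11 lower. DESeq2 after quantile normalization turned the share of called genes that were higher from 58.1% to 47.9%, and library totals alone to 75.7%.

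Sign changes were seen where the exonic length trend was removed for Trf (-0.01), Slc11a2 (-0.13), Aco1 (-0.05), Fbxl5 (-0.46) and Mtf1 (-0.24). With the replicate block added to that fit they were Slc40a1 (-0.01), Slc11a2 (-0.13), Aco1 (-0.05), Fbxl5 (-0.49) and Mtf1 (-0.24). With the canonical length trend removed they were Nfu1 (0.12), Isca2 (0.03), Slc30a7 (-0.11), Aco1 (-0.18), Fbxl5 (-0.17) and Mtf1 (-0.60). Fbxl5 was at -0.17 with the GC trend removed and Mtf1 at -0.15 with DESeq2 after quantile normalization. The cause was not tested. The log2 ratio of Slc40a1 to Slc11a2 differed between ages by 0.05, and by -0.15 to 0.23 with 1 library left out.

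Canonical in place of exonic length moved the 6m and 24m TPM of Fth1 (16544 and 11946), Ftl1 (2044 and 1650), Mt2 (1421 and 990), Trf (745 and 1135), Slc11a2 (14.1 and 25.4) and Slc40a1 (0.717 and 1.4). With the mean of each age removed, same-numbered libraries of the 2 ages correlated at 0.271, 0.143, 0.0778 and -0.348. Differently numbered ones correlated at -0.403 to 0.377. The values thus show no pairing by number, but cannot tell whether libraries were handled in pairs. A replicate block gave 4112 genes higher and 3130 lower, and 2 and 5 members. Without 24m replicate 1, 3 members were called higher. Of the members, Slc40a1 had 72 to 225 counts a library, and thinning to the smallest library left it at 0.38.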
